A study of Saccharomyces cerevisiae with 20 samples.

Results

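The second helix of histone H3 was followed through 29 yeast strains, each with a single substitution at a residue from Q85 to A114 of the protein. The strains were taken from the barcode table of a pooled histone mutant library by residue number, in a range chosen with earlier results of these data known. A strain was kept when its mean was at least 10 counts per library over all 20 libraries. Of 35 strains listed for these residues 29 were kept, out of 347 kept strains among 422 named ones. They covered 23 of the 30 positions. Every strain of the pool derived from JDY86, in which hht1-hhf1 is replaced by NatMX4 and hht2-hhf2 by a synthetic HHTS-HHFS copy marked with URA3, so the substituted H3 was the only H3 of the cell. The unsubstituted synthetic copy served as wild type, and it carried the same replacements and markers.

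The strains had been pooled, diluted to a low density into rich YPD medium and grown at 30 °C into stationary phase as 1 culture, to find histone residues whose change alters how long a strain persists without dividing. Quiescent cells were separated from non-quiescent ones by Percoll density gradient on days 0, 1, 2, 3, 5, 7, 14, 24, 34 and 44, and the up and the down barcode of every strain were counted in 1 library of each fraction. There were thus 10 libraries per fraction and no replicate culture. Errors and p-values below measure the scatter of serial libraries of 1 culture about a fitted line, not the spread between cultures, and serial libraries are not independent of each other.

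Each histone folds into a long helix flanked by a short helix on either side, joined by loops, and the long helices of H3 and H4 cross each other to form the core of the dimer. The first turn of the H3 second helix lies beside the loop that meets the DNA, its middle packs against H4, and its last turns form, with the third helix, the 4-helix bundle through which the 2 copies of H3 in a nucleosome meet. Replacement by alanine removes a side chain, replacement of serine by aspartate places an acidic group where a phosphate could sit, and replacement of alanine by serine adds a hydroxyl.

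The strains were told apart by a pair of 20-base barcodes, of which 5 pairs are shown because the largest falls and the largest rise below rest on counting them. They are written 5′ to 3′ as the barcode table gives them.
H3F104A up: tccatcagaagacagtgtga
H3F104A down: gcgccatcacaagatttaca
H3S86D up: tcattgctggcagtgtagct
H3S86D down: gatagcatcacatgacctgc
H3L92A up: taaacacagtgctcaagcgc
H3L92A down: gcatgtagtcaatgtctccc
H3L100A up: gagctgatgtcactcttggt
H3L100A down: tgatgcagcctgagccacat
H3E105Q up: aaattggtcgtaatgcgtcg
H3E105Q down: acggaccttgtacgcgatct
The up barcodes of the 29 strains differed from each other at 9 or more bases and the down barcodes at 7 or more. Each barcode of a strain was counted separately, so the 2 give readings of the same cells through different amplicons.

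The libraries held 126647 to 337544 counts, and the 29 strains together took 3.81% to 6.79% of a library. The down barcode gave 12.4% of the counts in the quiescent library of day 24 and 32.1% to 49.4% elsewhere. The 2 libraries of day 5 stood apart. Over all 347 kept strains the quiescent library of day 5 had a rank correlation of 0.973 with the non-quiescent library of day 3 and of 0.878 with the quiescent one, and the non-quiescent library of day 5 had 0.979 with the quiescent library of day 3 and 0.856 with the non-quiescent one. Each library of day 5 was thus closer to the other fraction of day 3 than to its own, as exchanged labels would give. Against day 7 the quiescent library of day 5 had 0.932 with the non-quiescent and 0.853 with the quiescent library. The non-quiescent library of day 5 had 0.963 with the non-quiescent and 0.939 with the quiescent library of day 7. The quiescent library of day 7 itself had 0.960 with the non-quiescent and 0.906 with the quiescent library of day 14. Whether labels were exchanged was not tested. The labels were kept, levels of day 5 are printed as labelled, and counts of calls that moved without these libraries are also given without them. Levels are given as CPM, which scale the counts of a strain to the total of the kept strains after TMM normalization. A rise or a fall of a level is thus a change relative to the other strains, not in the number of cells. Ratios between 2 libraries are log2 values centred on the median kept strain, with an exact 95% binomial interval that covers counting error only. Fewer cells of a strain and less barcode DNA per cell cannot be told apart in such counts.

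The other 6 of the 35 listed strains were not kept. H3S86A, H3Q93E, H3Y99E, H3E105A and H3T107A had 0 counts in every library. H3I89A had 13 counts in all, of which 4 were in the quiescent and 7 in the non-quiescent library of day 0. S86 and E105 were therefore seen in 1 substitution each. Substitutions at E97, L103, I112 and H113 were not analysed here.

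Between day 0 and day 44 the 29 strains separated widely in the quiescent fraction, from a 332-fold fall of H3F104A to a 2.49-fold rise of H3E105Q relative to the median kept strain. On the log2 scale H3F104A stood at -8.37 (-10.0 to -7.15), from 5 counts on day 44. Of the 29 strains 18 lay below the median kept strain and 11 above it, with a median ratio of -0.44 against 0 over all strains by construction. More than 2-fold falls were seen in 12 of the 29, against 26.5% of all kept strains, and 9 of these exceeded 4-fold. A rise of more than 2-fold was seen in 1, against 14.1% of all. The 12 strains were H3F104A, H3S86D, H3L92A, H3L100A, H3A110S, H3Q85A, H3S87D, H3A111S, H3Q85E, H3A88S, H3A114S and H3S87A in order of their fall. No other strain of the helix fell by more than 0.51 on the log2 scale. The highest of the remaining strains were H3E105Q at 1.32 (1.13 to 1.51), H3N108A at 0.79 (0.62 to 0.96) and H3V96A at 0.77 (0.53 to 1.00). The wild type stood at 0.41 (0.29 to 0.54), above 24 of the 29 strains.

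The falls were unevenly placed along the helix. In the first segment, Q85 to E94, 10 of 11 strains lay below the median kept strain, 7 of them more than 2-fold, and the median ratio was -1.92. In the middle segment, S95 to F104, 3 of 10 lay below it and the median was 0.10, although this segment held the lowest strain of all, H3F104A. In the last segment, E105 to A114, 5 of 8 lay below it with a median of -0.47, and both the rise of H3E105Q and the fall of H3A110S came from it. These medians describe 11, 10 and 8 strains and were not tested against each other.

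Against log2(day + 1) over all 10 quiescent libraries, edgeR's quasi-likelihood test with Benjamini-Hochberg adjustment over 347 strains called 12 of the 29 lower, against 27.1% of all kept strains, and 2 higher, against 21.6%. The 12 were the same strains that lay more than 2-fold down by day 44, and the 2 were H3E105Q and H3V96A. The libraries of days 0 and 44 that give that ratio are part of this fit, so the match is no separate support. Among 30 strains of the second helix of H4, residues 49 to 75, 6 were called lower and 6 higher. Among 20 strains of the first helix of H3, residues 63 to 77, 7 were called lower and 4 higher. The median slope was -0.08 for the H3 second helix, 0.00 for that of H4 and -0.14 for the first helix of H3, all per unit of log2(day + 1). Without the quiescent library of day 5, 17 of the 29 were called, against 57.1% of all kept strains, and all 14 calls of the full course were among them. Leaving out other single libraries ended 3 of the 14 calls. H3E105Q lost its call without day 34 or 44 (adjusted p up to 0.0624), H3V96A without day 2, 24, 34 or 44 (up to 0.110) and H3A114S without day 0, 2, 24, 34 or 44 (up to 0.118).

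H3F104A carries alanine in place of a phenylalanine that packs into a hydrophobic cluster of H4 and H3 residues. It started as the most abundant of the 29 strains, at 12850 CPM (1990 counts) in the quiescent library of day 0. Its quiescent levels then stood at 668, 989, 2186, 1946, 508, 136, 131, 86.4 and 41.3 CPM on days 1, 2, 3, 5, 7, 14, 24, 34 and 44, the last of these from 5 counts. Its non-quiescent level was 16657 CPM on day 0 and lay between 811 and 2011 CPM, with a median of 1196, in the 9 later libraries. The strain thus lost most of its share in both fractions by day 1. Its quiescent level stood higher on days 3 and 5 than on day 1 and fell from day 7 on, while its non-quiescent slope from day 7 was -0.09 ± 0.06 per 10 days (adjusted p = 0.558). The first-day fall was 19.5-fold (16.1 to 23.9) in the quiescent and 8.75-fold (7.73 to 9.93) in the non-quiescent fraction. The slope over the course was -1.36 ± 0.17 (SE) per unit of log2(day + 1) in quiescent libraries (adjusted p = 0.000444) and -0.66 ± 0.12 in non-quiescent libraries (adjusted p = 0.0124). From day 7 to day 44 the quiescent level fell by 0.87 ± 0.19 per 10 days on the log2 scale (adjusted p = 0.0099), and without the day 7 library that slope was -0.50 with an adjusted p of 0.172. The up barcode alone gave a ratio of day 44 to day 0 of -9.29 on 2 counts (-12.3 to -7.44), and the down barcode alone gave -7.05 on 3 counts (-9.33 to -5.50).

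H3S86D places an acidic residue in the first turn of the helix. Its quiescent levels were 6147, 5354, 7373, 8107 and 7313 CPM on days 0, 1, 2, 3 and 5, and 4071, 1753, 809, 898 and 438 CPM on days 7, 14, 24, 34 and 44. Its non-quiescent levels lay between 5832 and 7482 CPM from day 7 to day 44. The strain held its level through growth and fell afterwards in the quiescent fraction, where all 4 libraries from day 14 lay below all non-quiescent ones. The fall from day 0 was 15.0-fold (11.4 to 20.1). Its slope within days 7 to 44 was -0.78 ± 0.11 per 10 days in quiescent libraries (adjusted p = 0.00277) and -0.06 ± 0.04 in non-quiescent libraries (adjusted p = 0.555).

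H3L100A lacks a leucine of the part of the helix that packs against H4, and it took a like course from a lower start. Its quiescent levels were 3100, 2873, 3930, 4339 and 3129 CPM on days 0, 1, 2, 3 and 5, and 2404, 1000, 455, 419 and 330 CPM on days 7, 14, 24, 34 and 44. Its non-quiescent levels lay between 2843 and 3611 CPM from day 7 to day 44. On day 44 it stood 8.80-fold (6.37 to 12.5) lower in the quiescent than in the non-quiescent library. The slope from day 7 was -0.76 ± 0.13 per 10 days (adjusted p = 0.00444).

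H3L92A, another leucine to alanine change, differed in its early course. It fell from 2977 CPM on day 0 to between 1326 and 1652 CPM on days 1 to 3 in the quiescent fraction and from 2338 to between 857 and 1281 CPM in the non-quiescent fraction. Quiescent levels went on to 272 CPM on day 44, whereas non-quiescent levels stood between 1391 and 1924 CPM from day 7. The fall from day 7 was 4.86-fold (3.35 to 7.27), with a slope of -0.63 ± 0.10 per 10 days (adjusted p = 0.0036).

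H3E105Q neutralises an acidic residue at which other substitutions are known in yeast to bypass the need for the Swi/Snf remodelling complex. Its quiescent levels were 2189, 1295, 976, 900 and 599 CPM on days 0, 1, 2, 3 and 5, and 1245, 2907, 4751, 6292 and 5820 CPM on days 7, 14, 24, 34 and 44. Its non-quiescent levels fell from 1997 CPM on day 0 to between 349 and 601 CPM on days 1 to 3 and stood between 800 and 1495 CPM from day 7. The share of the strain therefore dropped in both fractions during growth and rose above its starting level only in the quiescent one. With the wild type as the centre, its quiescent ratio of day 44 to day 0 was 0.91 (0.72 to 1.10). The rise from day 7 to day 44 was 4.75-fold (4.02 to 5.64) in quiescent and 1.87-fold (1.49 to 2.36) in non-quiescent libraries. The quiescent slope was 0.57 ± 0.12 per 10 days (adjusted p = 0.0105), and without the day 7 library it was 0.34 with an adjusted p of 0.0613.

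Within stationary phase, days 7 to 44, edgeR called 12 of the 29 strains lower in the quiescent fraction, against 22.8% of all kept strains, and 6 higher, against 17.9%. With library totals in place of TMM scaling, which moved the median of all strains to -0.10 per 10 days, the split was 16 lower and 3 higher. From Q85 to E94 7 of 11 strains were called lower and 1 higher, with a median slope of -0.46 per 10 days against 0.01 over all kept strains. From S95 to F104 there were 2 lower and 2 higher calls among 10, and from E105 to A114 there were 3 lower and 3 higher among 8. The H4 second helix had 7 lower and 4 higher calls among 30. The number of calls rested on single libraries of this 5-library fit, since 5 of the 29 were called without day 7, against 32 of all 347 kept strains, and 10 without day 34, against 73 of 347. The 5 that were called in the fit without day 7 were H3S86D, H3S87D, H3L92A, H3L100A and H3A110S, all lower. These 5 kept their call without any single one of the 5 libraries.

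By the residue replaced, the stationary calls were spread as follows, against 22.8% lower and 17.9% higher among all kept strains. Of 7 strains at small residues 5 were called lower and none higher. Of 8 strains at hydrophobic and aromatic residues 3 were lower and 2 higher. Of 6 strains at serines 2 were lower and 1 higher, and of 8 at charged and amide residues 2 were lower and 3 higher. By the residue put in, 4 of 6 alanine to serine strains were called lower and 0 higher. Of 15 strains with a new alanine 5 were lower and 3 higher, and of 3 with a new aspartate 2 were lower and 1 higher. The 1 strain with a new glutamate was lower, and the 2 with a new glutamine were higher. H3G90A counts among the lower strains both at small residues and with a new alanine. The other strains with a lower call in stationary phase were H3S87D, H3Q85A, H3Q85E, H3A88S, H3A111S, H3A114S and H3G90A. Their slopes per 10 days were -0.63 ± 0.11 for H3S87D (adjusted p = 0.00465), -0.65 ± 0.18 for H3Q85A (0.0252), -0.62 ± 0.13 for H3Q85E (0.00929), -0.46 ± 0.13 for H3A88S (0.0255), -0.43 ± 0.10 for H3A111S (0.0119), -0.25 ± 0.09 for H3A114S (0.0484) and -0.44 ± 0.15 for H3G90A (0.0462). The call for H3G90A rested on day 7, where its quiescent level was 4816 CPM against 1122 to 1395 CPM on days 14 to 44, and without that library its slope was -0.01. Leaving out 1 library at a time ended the edgeR call of H3A114S in 5 of 5 fits (adjusted p up to 0.197). It ended that of H3A88S in 3 (up to 0.137) and those of H3Q85A and H3G90A in 2 each (up to 0.285 and 0.947). Those of H3Q85E and H3A111S ended in 1 each (up to 0.0991 and 0.118).

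The 6 alanine to serine substitutions did not move alike. H3A110S, at the interface between the 2 copies of H3, fell from 4230 CPM on day 0 to 2583 CPM on day 7 and 512 CPM on day 44 in the quiescent fraction, while its non-quiescent levels lay between 2090 and 2363 CPM from day 7. Its slope was -0.66 ± 0.08 per 10 days (adjusted p = 0.00203). The ratios of day 44 to day 0 were -3.14 for H3A110S, -2.09 for H3A111S, -1.92 for H3A88S and -1.77 for H3A114S. H3A91S and H3A98S stood at -0.08 (-0.34 to 0.18) and 0.02, near the median strain. Their stationary slopes of -0.15 ± 0.06 and 0.03 ± 0.07 per 10 days did not pass the test.

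The strains called higher in stationary phase beside H3E105Q were H3V96A, H3N108A, H3L109A, H3E94Q and H3S102D. H3V96A, which lacks a valine of the H4-facing side, stood at 1023, 1679, 3073, 3092 and 3013 CPM on days 7, 14, 24, 34 and 44 in quiescent libraries and between 937 and 1232 CPM in non-quiescent ones. H3N108A stood at 2469, 3333, 5256, 6344 and 5820 CPM on the same days and between 1791 and 2031 CPM in non-quiescent libraries. Both rose in the quiescent fraction, H3V96A with little change after day 24 and H3N108A up to day 34. Both stayed level in the other fraction. Their slopes were 0.41 ± 0.11 (adjusted p = 0.0204) and 0.37 ± 0.08 (adjusted p = 0.0105) per 10 days, and without the day 7 library they were 0.24 (adjusted p = 0.151) and 0.26 (adjusted p = 0.108). H3S102D stood at 2066 CPM on day 0 and at 2182, 2401, 2790, 2967 and 3187 CPM on days 7, 14, 24, 34 and 44 in quiescent libraries, against 2367 to 2799 CPM from day 7 in non-quiescent ones, and its ratio of day 44 to day 0 was 0.53 (0.32 to 0.75). The slopes of H3L109A, H3E94Q and H3S102D, 0.20 ± 0.06 (adjusted p = 0.0358), 0.20 ± 0.07 (0.0403) and 0.15 ± 0.05 (0.0343) per 10 days, lost their calls when library totals or the wild type set the scale. Their values were then 0.09, 0.09 and 0.04 with library totals.

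Most strains of the middle segment stayed near the median strain. H3S95A, H3A98S, H3Y99A, H3Y99F, H3V101A and H3S102A had quiescent stationary slopes from -0.08 to 0.09 per 10 days, none of which passed the test. Y99 and D106 are hydrogen-bonded by arginines of the third helix. H3Y99A stood at 1240 CPM on day 0, 472 CPM on day 5 and 949 CPM on day 44 in quiescent libraries. H3Y99F stood at 2215 CPM on day 0 and 3236 CPM on day 44, with a ratio of 0.46 (0.24 to 0.67). H3D106A fell from 2564 CPM on day 0 to 1096 and 955 CPM on days 1 and 2 and stood at 3170 CPM on day 44. The ratios of day 44 to day 0 of the alanine strains at Y99 and D106 were -0.48 (-0.82 to -0.14) and 0.21. H3E94A, of the first segment, lay somewhat below the median strain, at -0.39 (-0.60 to -0.18).

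In the first days after dilution, when the pool was growing, the strains of the last segment moved to one side. Days 1 to 3 against day 0, with both fractions in 1 fit, gave 12 of the 29 strains lower, against 28.8% of all kept strains, and 6 higher, against 25.4%. From E105 to A114, 7 of 8 strains were called lower and the remaining one, H3A111S, was at -0.62 ± 0.25 (adjusted p = 0.0583), with a segment median of -0.98 against 0.03 over all strains. From S95 to F104, 5 of 10 were called higher and only H3F104A lower, at -3.36 ± 0.34 (adjusted p = 8.44e-05), with a median of 0.51. From Q85 to E94 4 of 11 were lower and 1 higher. Day 1 against day 0, from libraries that are part of that fit, gave the same side in each fraction. All 8 strains from E105 to A114 lay below the median strain in both, by 0.34 to 1.25 on the log2 scale in quiescent and by 0.90 to 2.42 in non-quiescent libraries.

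The 6 strains called higher early were H3S102A, H3S95A, H3S102D, H3A91S, H3A98S and H3Y99F, from 0.80 to 0.50. With the wild type as the scale, which moved the median of all strains to -0.26, there were 14 lower and 2 higher calls, the latter being H3S102A and H3S95A. The early calls depended on the non-quiescent library of day 0, without which 3 of the 29 were called, against 13.5% of all kept strains. These were H3F104A at -3.31, H3L92A at -0.99 and H3L109A at -0.98. H3G90A, at -2.17 ± 0.71, was among the lower calls and had scattered levels, with 157, 392 and 1356 CPM on days 1, 2 and 3 in quiescent libraries against 304, 162 and 220 CPM in non-quiescent ones. Without the non-quiescent library of day 0 its early change was -0.86 (adjusted p = 0.498). H3S86D, H3L100A, H3Q85E and H3A88S, which fell later, had early changes between 0.18 and 0.39 that did not pass the test.

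The non-quiescent libraries changed little after day 7. None of the 29 strains was called in the slope over days 7 to 44, against 0% of all kept strains, with 2 of the 29 and 10.7% of all at an unadjusted p under 0.05 by edgeR and none of the 29 called by DESeq2. The ratios of day 44 to day 7 lay between -0.55 for H3F104A and 0.90 for H3E105Q, with a median of -0.02, whereas the same ratios in quiescent libraries ran from -3.60 for H3F104A to 2.25 for H3E105Q. Over the whole non-quiescent course 1 of the 29, H3F104A, was called lower, against 5.76% of all. Without the non-quiescent library of day 5 there were 2, H3F104A and H3E94Q at -0.16 (adjusted p = 0.0416), against 7.49% of all called in either direction. More than 2-fold below the median strain on day 44 relative to day 0 were 4 of the 29, against 21.6% of all kept strains in that fraction.

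The trends of the 2 fractions were then compared directly, with day as a block and a term for the difference in slope per unit of log2(day + 1). Of the 29 strains 10 were called with a lower quiescent trend, against 17.6% of all kept strains, and 1 with a higher one, against 15.3%. The lower ones were H3S86D at -0.70 ± 0.10, H3F104A at -0.66 ± 0.18, H3L100A at -0.65 ± 0.12, H3L92A at -0.56 ± 0.10, H3S87D at -0.52 ± 0.15, H3Q85E at -0.51 ± 0.11, H3A110S at -0.50 ± 0.15, H3A88S at -0.47 ± 0.08, H3A111S at -0.40 ± 0.12 and H3S87A at -0.27 ± 0.09. Their adjusted p-values ran from 0.00324 for H3S86D to 0.0346 for H3S87A. H3E105Q was the one with a higher quiescent trend, at 0.34 ± 0.11 (adjusted p = 0.0385), and with library totals its value was 0.25 with an adjusted p of 0.116. Of the 10, 6 lay from Q85 to E94. The H4 second helix had 5 lower and 4 higher calls among 30, and the first helix of H3 had 4 lower and 0 higher among 20.

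Without both libraries of day 5 the difference in trend was called for 12 of the 29, 10 of them lower, against 41.5% of all kept strains, and all 11 calls made with day 5 were among them. Without day 24, day 34 or day 44 of either fraction the calls fell to 5, 4 and 4, against at most 45, 24 and 18 of all 347 kept strains. H3S86D, H3A88S, H3L92A and H3L100A were called in each of these 3 fits. From day 14 to day 44 all 4 quiescent libraries lay below all 4 non-quiescent ones in 15 of the 29 strains, against 33.1% of all kept strains, and above them in 3, H3V96A, H3E105Q and H3N108A, against 30.0%. For the level itself, averaged over days, no strain of the 29 was called between fractions, against 0% of all kept strains, with 10 of the 29 at an unadjusted p under 0.05 by edgeR, against 25.1% of all, and 7 called by DESeq2, against 16.1%. Without the day 5 libraries edgeR called 3, against 13.5% of all. These were H3E105Q at 1.39, H3N108A at 1.09 and H3V96A at 0.74, all higher in quiescent cells.

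The ratio of quiescent to non-quiescent levels was also followed by day, and it changed sign in the early days, so no single day of parting can be read from it. For the 11 strains from Q85 to E94 the median log2 ratio was -0.08 on day 0, -0.25 on day 1, 0.28 on day 2 and 0.50 on day 3. It was then -0.24 on day 7, -0.53 on day 14, -1.36 on day 24, -1.72 on day 34 and -1.82 on day 44. For the 10 strains from S95 to F104 it stayed between -0.43 and -0.13 over days 7 to 44. For the 8 strains from E105 to A114 it was 1.12 on day 3 and between 0.00 and 0.59 from day 7. On day 5 the 3 medians were -0.69, 0.18 and -0.71, against 0.50, -0.05 and 1.12 on day 3, so that each changed sign between these days.

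At 6 residues there were 2 substitutions each, which compares 2 replacements of 1 side chain within a library and needs no scaling. Over all 121 same-residue pairs of H3 and H4 limma called 38.0% in the trend over the quiescent course and 13.2% in the stationary slope. Among the 6 pairs here 2 were called in the trend and 1 in the stationary slope. The call in both was H3S87D over H3S87A. Aspartate and alanine at S87 gave log2 count ratios of 0.13, 0.28, 0.41, 0.58 and 0.40 on days 0, 1, 2, 3 and 5 and of 0.63, -0.07, -0.39, -0.66 and -0.87 on days 7, 14, 24, 34 and 44. The aspartate strain was thus the more abundant until day 7 and the less abundant from day 14 in quiescent cells. In non-quiescent libraries the same ratio was between 0.16 and 0.56 from day 7. The stationary slope of the ratio was -0.37 ± 0.08 per 10 days (95% interval -0.56 to -0.19, limma adjusted p = 0.0314). Without day 7, 34 or 44 its limma adjusted p reached 0.282. The trend over all days was -0.21 per unit of log2(day + 1) (-0.36 to -0.07, adjusted p = 0.0246).

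At E94 glutamine gained on alanine, with log2 count ratios of 0.25 on day 0, 0.10 on day 7 and 0.86 on day 44 in quiescent libraries and of 1.00, 0.46 and 0.32 in non-quiescent ones. The quiescent trend was 0.15 (0.05 to 0.26, limma adjusted p = 0.0312) and the non-quiescent one -0.13 (-0.20 to -0.07, adjusted p = 0.0676). Without day 24, 34 or 44 neither this pair nor the one at S87 passed in the trend. The pair at E94 did not pass without day 1 either, at 0.12 (limma adjusted p = 0.0720). With the up barcode alone no pair passed in the trend, and with the down barcode alone 1 did. At Q85 both replacements fell in quiescent libraries, the alanine strain to 7 counts on day 44. The glutamate strain was the more abundant by 1.76 to 3.01 on the log2 scale in every quiescent library. The difference in stationary slope was -0.02 per 10 days, with an interval of -0.34 to 0.31 that leaves room for either direction. In non-quiescent libraries the trend of this pair was 0.19 (0.05 to 0.33, limma adjusted p = 0.118). At S102 aspartate over alanine went from -0.99 on day 7 to -0.19 on day 44, a slope of 0.21 (0.05 to 0.36, adjusted p = 0.0883). Phenylalanine over alanine at Y99 had a trend of 0.15 (-0.05 to 0.34), and asparagine over alanine at D106 had -0.16 (-0.40 to 0.08). Neither of the last 2 pairs passed the test, and their intervals leave room for differences in either direction. Without the quiescent library of day 5 the pair at Y99 passed, at 0.16 (adjusted p = 0.00282), which made 3 of the 6 pairs against 43.0% of all pairs.

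The 2 barcodes of a strain could be set against each other in every comparison. The up and the down barcode gave the same sign of the quiescent trend in 28 of the 29 strains, of the quiescent stationary slope in 26 and of the difference in trend between fractions in 27. With the down barcode alone 6 of the 29 passed the test of that difference, against 18.4% of all kept strains, where 11 of the 29 passed with the sum of both. The part of the low down-barcode share of the quiescent library of day 24 in this was not tested. For the ratio of day 44 to day 0, H3S86D gave -3.73 from its up and -4.21 from its down barcode, H3L100A gave -3.29 and -3.30, and H3E105Q gave 1.43 and 1.15.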

How the data were processed

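The data were barcode counts of 1 pooled yeast culture, in 10 quiescent and 10 non-quiescent libraries, 1 for each of 10 days. The deposited library files hold raw counts of the up and the down barcode per strain, made by the authors from single-end reads by matching each read to the known barcodes, and no further normalization had been applied. The barcode table joined 422 strains to 488 listed pairs, while 65 pairs had no name and stayed unnamed. These took 10.6% to 20.7% of the counts, depending on the library. A second listing of the wild type held 0 counts. A second deposited table holds the authors' own log2 comparisons and was not used. Residues are numbered as in the strain names.

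Counts of both barcodes were added up, and strains with a mean under 10 per library were left out. Trends and slopes were fitted with edgeR 4.0.16 (R 4.3.3, TMM scaling, quasi-likelihood F-test) on all 347 kept strains, on 3 to 9 residual degrees of freedom and biological coefficients of variation of 0.065 to 0.356, with Benjamini-Hochberg adjustment over all of them and a threshold of 0.05. Pairs of 1 residue were fitted with limma 3.58.1 on log2 ratios with 0.5 added to each count. DESeq2 1.42.0, other scalings, no count filter, each barcode alone and leaving out each library were the alternatives. The joins and ratios were made in Python 3.11.15 with numpy 2.4.6, pandas 2.3.3 and scipy 1.17.1. Counts are PCR reads without molecular identifiers, so the exact (Clopper-Pearson) intervals cover counting error only. The fits were first run on simulated data with independent libraries. The scatter set there for edgeR was below that of most of these fits, so those runs do not show how the tests behave on these serial libraries.

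The 29 strains, the residue groups and the comparison regions were chosen with earlier results of these data known. Values are given in full for the 5 highest and 5 lowest strains by the quiescent ratio of day 44 to day 0, for the strains called in the quiescent stationary slope by that slope, for S86, L100, F104 and E105, and for all pairs of 1 residue. H3V96A and H3G90A levels by library were added after the values were seen.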

Additional observations from a re-analysis of the deposited data

Results flagged for a closer look

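The quiescent and the non-quiescent trend of a strain differed, by the test of that difference itself, in 11 of the 29 strains, against 32.9% of all kept strains, and all values here are quiescent minus non-quiescent slopes per unit of log2(day + 1) from edgeR. The difference was -0.70 for H3S86D, -0.66 for H3F104A, -0.65 for H3L100A, -0.56 for H3L92A, -0.52 for H3S87D, -0.51 for H3Q85E, -0.50 for H3A110S, -0.47 for H3A88S, -0.40 for H3A111S and -0.27 for H3S87A. H3E105Q went the other way at 0.34.

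H3I89A, which was left out by the count minimum, had 13 counts over all libraries, 11 of them on day 0.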

How the results depend on the processing

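Leaving out 1 library at a time gave 11 to 17 calls among the 29 strains in the quiescent course, 5 to 17 in the quiescent stationary slope, 1 to 3 in the non-quiescent course, 0 in the non-quiescent stationary slope, 3 to 18 in the early change, 0 to 3 in the level between fractions and 4 to 13 in the difference in trend. Among the 6 pairs it gave 0 to 3 calls in the trend and 0 to 2 in the stationary slope. The largest losses came without the quiescent library of day 7 (stationary slope), the non-quiescent library of day 0 (early change) and the libraries of days 24, 34 and 44 (difference in trend).
The non-quiescent course gave 2 calls with DESeq2, the wild type as reference or the up barcode alone, and the non-quiescent stationary slope gave 1 with the up barcode alone. The level between fractions gave 7 calls with DESeq2 and 3 without both libraries of day 5. The difference in trend gave 6 with the down barcode alone. The pair trend gave 0 calls with the up barcode alone, 1 with the down barcode alone and 0 in non-quiescent libraries. The pair stationary slope gave 0 with the down barcode alone and in non-quiescent libraries. It also gave 0 by exact permutation of days, where 5 libraries allow no p below 0.00833, so that this count says nothing about stability.
These values changed sign, and the cause was not tested. In non-quiescent libraries H3S87D over H3S87A had a trend of 0.037 and a stationary slope of 0.090, and H3E94Q over H3E94A a trend of -0.13. The ratio of day 44 to day 0 was there 0.50 for H3A88S, 0.16 for H3E94A, -0.52 for H3E94Q, -0.52 for H3E105Q, -0.36 for H3D106A and -0.41 for H3N108A. It was -0.012 for H3E94Q with the up barcode alone. With the wild type as centre it was -0.19 for H3E94Q and -0.20 for H3D106A. From day 7 in place of day 0 it was -0.0035 for H3D106A, 0.0030 for H3D106N and 0.68 for H3L109A. With the other alternatives the counts of calls stayed within 1.5 times the main count. Fractions were compared within days, with day as a block. No paired analysis was possible by replicate number, because each fraction and day has 1 library.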
